A study of Xenopus laevis with 6 samples.

Results

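Animal pole explants left untreated and grown to the equivalent of stage 20 made up 4 of the 6 samples of a Xenopus laevis microarray series titled for Notch signalling in glial development. They were chosen by their titles, untreated 1 to untreated 4, and are described alone; the 2 remaining samples came from embryos injected with NICD, the intracellular domain of Notch, and are not compared here. All 4 samples share 1 condition: tissue cut from the animal pole at stage 8, with no injection named, and kept in culture until whole siblings reached stage 20. The series' design text calls these explants pooled, without the number per pool, and no label states that the 4 were separate experiments. P-values therefore rest on the spread between arrays processed on the same day, which may be technical.

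The animal pole is the ectodermal cap of the blastula. Cut away from the inducing tissues below it, the cap does not receive the signals that make mesoderm or neural plate and instead builds the mucociliary skin of the larva. That skin has goblet cells that secrete mucus, multiciliated cells that move it, ionocytes that exchange protons and salts, and small secretory cells that release serotonin, all set among keratin-rich epidermal cells.

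Each sample was hybridised to 1 Affymetrix array, and the deposited MAS5 signals cover 15491 probe sets after 120 controls were left out, of which 9304 carry 1 gene symbol (7531 distinct symbols). The median signal per array was 158.7 to 178.9, the 40th percentile 103.1 to 116.4 and the 90th percentile 1516 to 1584. The highest of 27 probe sets for bacterial control genes read 57.1 to 75.3, and 26% to 30.5% of probe sets per array were no brighter than that reading. The arrays were processed (hybridised and scanned) on 2 days, untreated 3 and untreated 4 on day 2, untreated 1 and untreated 2 on day 1. Within each day, 1 array ran on fluidics module 1 and the other on module 2. For the gapdh control, 3' over 5' signal was 2.70 and 3.54 on day 2 and 3.42 and 3.03 on day 1. The endings .L and .S mark the 2 copies (homeologs) that this species carries of many genes, and a probe set named for a copy can also detect its partner.

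Keratin and the general machinery of protein synthesis headed the ranking by mean signal. The highest probe set belonged to krt70.S, an epidermal keratin. Its signal was 36878 and 41993 on the arrays of day 2 and 21978 and 21651 on those of day 1, a mean of 30625 ± 10386 (SD, n = 4). Both day 2 arrays were above both day 1 arrays, and the days did not overlap in 56.2% of all probe sets tested between them. The genes that follow are ranked by their highest probe set, and probe sets without a single symbol are passed over. krt70.S was followed by the translation elongation factors eef1a1o.S at 25084 ± 6611 and eef1a1.S at 23880 ± 6107. Next came the splicing factor srsf2.L at 23802 ± 5898, the ferritin ftmt.S at 23726 ± 4601 and a second keratin, krt7.L, at 23622 ± 7663 (SD, n = 4 each). The order is one of signal, not of transcript number, since probe sets differ in how well they bind and in what they detect. The 4 probe sets of krt70.S averaged 30625, 28326, 12264 and 2697, and the 2 of cirbp.L averaged 23153 and 2155. Only the dimmest of krt70.S had no suffix marking probes shared with other transcripts. The first rank of krt70.S thus rests on probe sets that may also read other transcripts. The probe sets that ranked srsf2.L and krt7.L had such a suffix too, and that of srsf2.L without it averaged 3003.

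The gene ranked seventh, itln1.L, encodes a secreted lectin of goblet cells. It read 22867 and 32144 on day 2 and 19281 and 18923 on day 1, so untreated 4 was the highest of the arrays. The remaining genes among the 25 highest were largely of common cell functions. They included the cytoskeletal genes actb.L and tuba1cl.3.L, both copies of cirbp, which encodes a cold-inducible RNA-binding protein, and both copies of glul, which encodes glutamine synthetase. The chromatin genes hmgn2.S, hmgn2.L and h2az1.L, the ribosomal protein genes rps29.S and rps27.S and the chaperone hspa8.L lay between 17302 and 20928. The probe sets that ranked tuba1cl.3.L, rps29.S and rps27.S also had a suffix marking shared probes. The highest probe sets of these genes without it averaged 5263, 8547 and 5128. The others were azin2.S, an inhibitor of antizyme in polyamine metabolism (21964 ± 4076), has1.S, a hyaluronan synthase (18411 ± 3074), tmem126a.L (18134 ± 4882), atp1b2.L, a sodium pump subunit (17293 ± 2365), and both copies of krt12.4 (SD, n = 4 each).

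**Figure D1:**
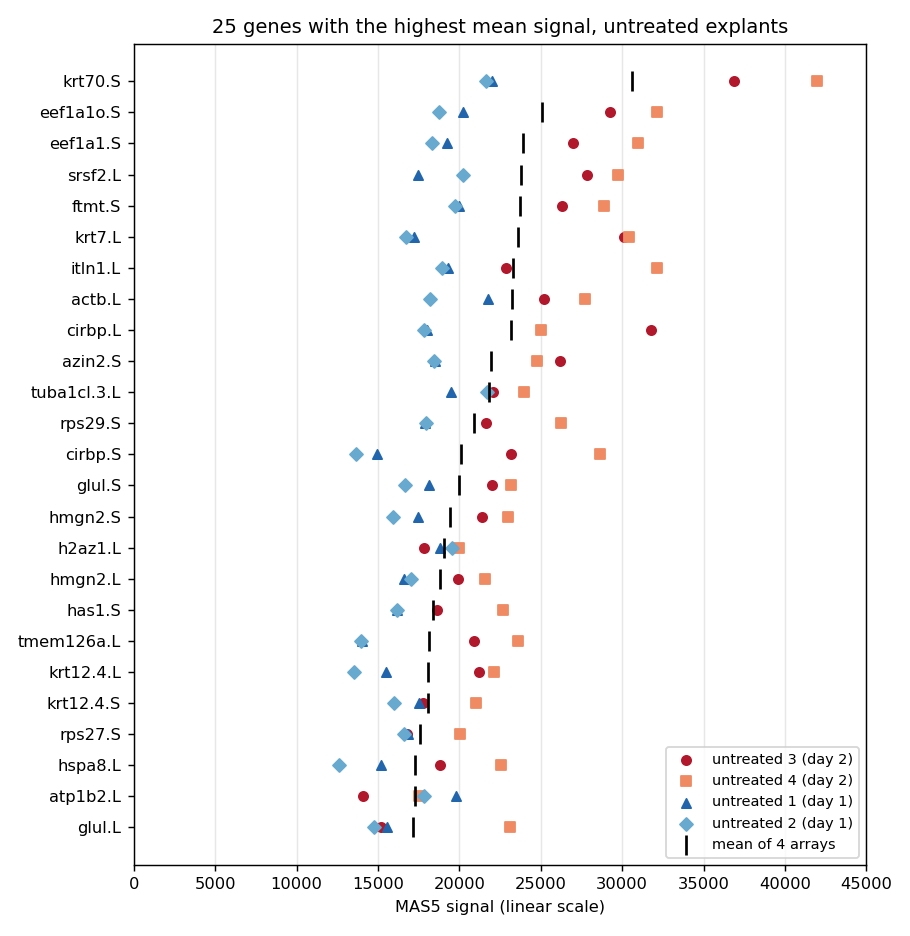
Signal of the 25 genes with the highest mean in untreated explants, one row per gene, with a point per array (red and orange for day 2, blue for day 1) and a bar at the mean of 4 arrays, on a linear axis. krt70.S has the widest spacing between days, with 36878 and 41993 on day 2 and 21978 and 21651 on day 1, while h2az1.L stays between 17840 and 19988.

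Of the 100 highest probe sets, 77 had 1 symbol, for 67 distinct symbols. Keratins held 9 of the 100 places with 6 symbols, against 0.187% of all probe sets. Actin and tubulin genes also held 9 (0.465% of all), histone and chromatin proteins 9 (0.336%), RNA-binding and splicing proteins 7 (1.17%), translation factors 6 (0.555%) and cytosolic ribosomal proteins 5 (0.665%). No V-ATPase, glycolysis or proteasome probe set was among them. Of the 100, 41 probe sets had a suffix marking probes shared with other transcripts, and without such probe sets keratins held 4 of the 100 highest and ribosomal proteins 10.

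Classes differed in how evenly their members were placed. Cytosolic ribosomal proteins were high as a body: 73.8% of their 103 probe sets lay above the 90th percentile in all 4 arrays, and their median signal was 5128. Keratins were divided, with 41.4% of 29 probe sets above that line but a median of only 391. Named genes outside the classes were above it in 7.07% of 8269 probe sets.

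The identity of the tissue was examined through 13 lists of cell type markers. A symbol was called high when its highest probe set exceeded the 90th percentile on each of the 4 arrays, and low when it was at or below the 40th percentile on each. Over all 7531 symbols 10.8% were high and 25.3% were low, and 15% lay at or below the highest bacterial control in all 4. In pooled tissue, fewer cells of a type and less RNA per cell cannot be told apart.

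General epidermal genes were the most strongly represented of the long lists. Of 53 measured symbols 25 were high and 7 low, with a median signal of 1711. Besides keratins, the high members included the tight junction gene cldn4.L, at 15090 and 15750 on day 2 and 15881 and 16206 on day 1, the adhesion genes epcam.L and jup.L, and the transcription factors grhl1.L, dlx3.S and gata2.L at 5917, 4018 and 3434. The cldn4.L values were close on all arrays (15732 ± 469, SD, n = 4). Not all keratins were present at such levels: krt12.2.L, krt15.1.S and krt61.L averaged 23.0, 8.75 and 35.8, at or below the bacterial controls. The basal epidermal regulator tp63.L had a modest signal of 268 and 201 on day 2 and 202 and 176 on day 1.

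Goblet cells were represented by 4 measured symbols, and 11 of the 14 listed genes had no probe set named for them here. Beside itln1.L, agr2.S, a disulfide isomerase of mucus-secreting cells, read 6290 and 4890 on day 2 and 4546 and 5188 on day 1. The secretory regulator xbp1.L was also high in all arrays, at 1782 ± 118 (SD, n = 4). The second agr2 copy, agr2.L, averaged 822.

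Ionocyte genes were likewise present, with 5 of 17 high and 2 low. The ionocyte regulator foxi1.L read 2178 and 2910 on day 2 and 2154 and 1853 on day 1. Its partner tfcp2l1.S varied little, from 4517 to 4938 over the arrays. The proton pump subunits atp6v1b1.L and atp6v0d2.L averaged 2608 and 2323, and the first ranged from 1644 to 4015. The proton-potassium pump atp12a.L averaged 2373 while the probe set for atp12a.S averaged 20.0, and the ammonium transporter rhbg.S averaged 4.62.

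Multiciliated cell genes occupied the middle to upper range rather than the top. Of 28 symbols 4 were high and 2 low, and their median lay at the 79.1st percentile of all probe sets. ccno.L, which controls the mass production of basal bodies, read 3006 and 3037 on day 2 and 2716 and 4282 on day 1. rsph1.L, a radial spoke protein of the axoneme, read 2662 and 2611 on day 2 and 3244 and 3484 on day 1. Next were cfap20.L, cfap52.L and cetn4.L, at 1930 to 2029. The axonemal tekt4.S was among the steadiest of all genes, at 1407 and 1442 on day 2 and 1453 and 1498 on day 1. The low members were dnah9.S and myb.S at 47.7 and 39.3. For 46 of 71 listed genes, foxj1 and mcidas among them, no named probe set was analysed here.

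Small secretory cell markers gave a mixed picture. The monoamine transporter slc18a1.S was high, with 2920 and 4419 on day 2 and 3532 and 3603 on day 1. The regulator foxa1.S read 193 and 325 on day 2 and 429 and 541 on day 1, and its day difference did not pass the test (limma adjusted p = 0.0814). The 3 other measured members were low: tph1.L, which encodes the enzyme that starts serotonin synthesis, at 67, the transporter slc18a2.L at 78.2, and pnhd.L at 11.8.

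**Figure D2:**
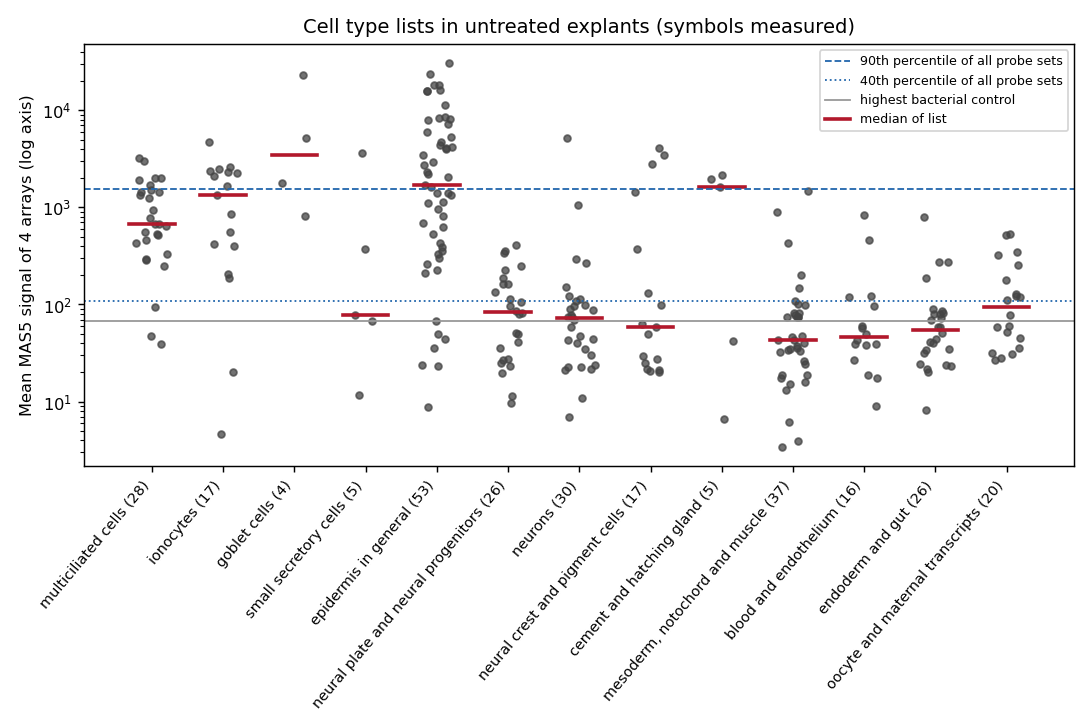
Mean signal of each measured symbol in 13 cell type lists (dots, log axis), with the list median (red) and, averaged over arrays, the 90th and 40th percentiles of all probe sets and the highest bacterial control (lines); the number of symbols stands in brackets. Goblet and epidermal medians lie at 3505 and 1711, while those of neural, mesodermal, blood and endodermal lists lie between 42.6 and 84.1.

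Lineages that the cap is not thought to form without induction were mostly near background. Of 26 endodermal symbols 21 were low (12 at or below the bacterial controls in all arrays), of 37 for mesoderm, notochord and muscle 26 (20), and of 16 for blood and endothelium 11 (9). None of these 3 lists had a high member. The endodermal regulators sox17a.L and sox17a.S averaged 19.9 and 33.6, and the muscle regulators myod1.L and myf5.L averaged 75.2 and 74.6. The notochord gene shh.L averaged 24.4. A few members stood above the rest. They were a2m.S (389 and 623 on day 2, 757 and 1403 on day 1), the calcium pump gene atp2a1.S (1416 and 1466 on day 2, 1361 and 1607 on day 1), the creatine kinase gene ckm.L (893 ± 206, SD, n = 4) and the haemoglobin gene hba-l5.L, which ranged from 491 to 1237.

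Neural genes were also weak. Of 26 neural plate and progenitor symbols 13 were low and none high, and of 30 neuronal symbols 19 were low. The hindbrain gene egr2.L averaged 11.4, rax.L of the eye field 9.75, and the neuronal RNA-binding genes elavl3.L and elavl4.L averaged 75 and 42.9. The strongest progenitor symbols were sox11.S at 405 and gmnn.L at 354, and sox2.L read 235 and 190 on day 2 and 229 and 246 on day 1. An exception among the neuronal genes was syt1.L, a calcium sensor of vesicle release, whose probe set read 4719 and 6192 on day 2 and 4665 and 4981 on day 1. tubb2b.S, a neuronal tubulin, averaged 1062 ± 174 (SD, n = 4).

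Neural crest and pigment markers divided in the same way. Of 17 symbols 10 were low, including sox10.L at 21.8 and both copies of foxd3 and snai2, and 3 were high. The high ones were id3 (listed once without a copy ending and once as id3.S), a target of BMP signalling that is not limited to the crest, and pax3.L. The pax3.L signal was 5186 and 3833 on day 2 and 2204 and 2687 on day 1, while pax3.S averaged 24.7. Cement and hatching gland markers were mixed, with 2 of 5 symbols low and none high. The cement gland gene ag1.L read 1146 and 1999 on day 2 and 1971 and 3579 on day 1. The hatching enzyme gene astl2d.1.L read 1583 and 2404 on day 2 and 2521 and 1356 on day 1. The low members were pitx1.L at 41.6 and a second hatching enzyme gene, astl3a.1.L, at 6.6. Maternal and oocyte genes were low in 10 of 20 and high in none, the strongest being zp2.L at 532 ± 84.8 (SD, n = 4).

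Arrays of the same processing day were more alike than arrays of different days. Pearson's r of the log2 signals was 0.974 within day 2 and 0.981 within day 1, and 0.958 to 0.962 between days (a description over probe sets, which are not independent). Over 8217 probe sets above the 40th percentile in all arrays, the median SD of log2(signal + 32) was 0.26, and the 4 values spanned more than 2-fold in 14.4%. In limma, 716 of 9638 probe sets tested (7.43%) differed between days at an adjusted p under 0.05, 456 (4.73%) higher and 260 (2.7%) lower on day 2. The count was 52 with no filter on low signals, 396 by eBayes without a trend, 334 without untreated 1 and 398 without untreated 2. The days did not overlap in 56.2% of those tested. In 82 of the 716 both arrays of a day were at or below the 40th percentile, so these entered the test only through the day on which they were bright. Of the calls 363 were at least 2-fold and 15 at least 4-fold. The direction of the calls depended on the scaling, with 378 higher and 279 lower on day 2 after quantile normalization and 228 higher and 308 lower after median centring. The day is that of hybridisation and scanning, and no label says on which day the explants were made. A difference between the tissues and a difference in handling therefore cannot be told apart.

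The list by size was headed by tspan8.L, which encodes a tetraspanin of cell membranes. Its signal was 5960 and 4281 on day 2, against 6.70 and 6.90 on day 1, where both values were below the highest bacterial control. It entered the test through day 2 alone, and its signal was at least 80.1-fold higher on day 2, taken against that control as the floor of each day 1 array (limma adjusted p = 8.13e-07). Bounds below use the same floor. fam3a.L read 2610 and 2777 on day 2 and 308 and 205 on day 1 (log2 difference 3.26 ± 0.23 SE, adjusted p = 0.000487). The other probe sets of fam3a.L did not share this: of 2 that were tested, one differed by 0.40 (adjusted p = 0.271) and the other by -0.04 (adjusted p = 0.96). Genes higher on day 2 further included ift46.S, an intraflagellar transport subunit (log2 difference 1.83), gipc2.S (1.72), tm9sf2.S (1.54), g67.L (1.54), the mitotic kinesin kifc1.L (1.5) and the cyclin ccng2.L (1.46), with adjusted p between 0.00718 and 0.0277. A second probe set of tm9sf2.S differed by 0.26 (adjusted p = 0.432) and that of g67.L by 0.97 (adjusted p = 0.11), and neither passed the test. The aldo-keto reductase gene akr1c8p.S (625 and 294 on day 2, 31.9 and 72.8 on day 1) and syne1.L, which links nucleus and cytoskeleton (155 and 144 on day 2, 2.10 and 35.4 on day 1), also passed. Both were below the 40th percentile on both day 1 arrays and entered the test through day 2 alone, and for syne1.L the difference was at least 2.37-fold.

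In the other direction, alox12b.S, a lipoxygenase known from the skin barrier of mammals, read 11.4 and 9.20 on day 2 and 228 and 338 on day 1 (adjusted p = 0.00227). On day 2 it was below the highest bacterial control on both arrays, so it entered the test through day 1 alone and was at least 3.83-fold lower on day 2. LOC100158288 read 3760 and 5281 on day 2, against 15386 and 16646 on day 1, and was the strongest signal among them (log2 difference -1.84 ± 0.18 SE, adjusted p = 0.00227). lmnb1.S, which encodes lamin B1 of the nuclear envelope, read 513 and 434 on day 2 and 1758 and 1761 on day 1 (-1.83 ± 0.20 SE, adjusted p = 0.00602). Lower on day 2 were also the translation factor gene eif4g3 (log2 difference -1.91), the complement gene c3.L (-1.79), ambp.L (-1.76) and gs17.L (-1.57). The 3 other tested probe sets of ambp.L differed by -0.22, -0.10 and -0.23 and did not pass (adjusted p = 0.57, 0.815 and 0.567). The ubiquitin ligase gene rnf40.L, qdpr.L and c1orf174.S passed as well, but were below the 40th percentile on both day 2 arrays and entered the test through day 1 alone. With day 2 at the control floor, rnf40.L was at least 1.94-fold and qdpr.L at least 2.27-fold lower on day 2. The call of gs17.L (adjusted p = 0.0448) was lost after quantile normalization, at 0.0572, and after median centring, at 0.0526.

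**Figure D3:**
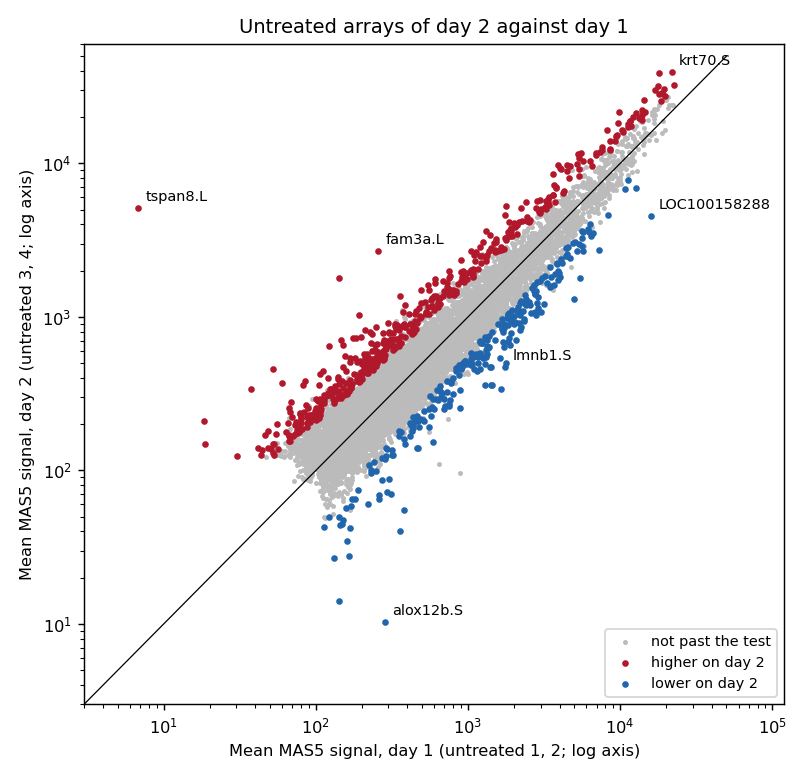
Mean signal on day 2 (untreated 3 and 4) against day 1 (untreated 1 and 2) for 9638 tested probe sets on log axes, with the line of equality; 456 probe sets that were higher on day 2 in limma are red and 260 that were lower are blue. tspan8.L stands far from the rest, and the brightest probe sets lie above the line.

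The 100 brightest probe sets leaned towards day 2. Of the 100 highest probe sets 31 were higher on day 2 and none lower, with a median log2 difference of 0.40. Over all 9638 tested probe sets 456 (4.73%) were higher and 260 (2.7%) lower, with a median of 0.03. After median centring the median of the 100 was 0.29, beside -0.07 over all tested. Then 7 of the 100 were higher and none lower, beside 228 higher and 308 lower among all 9638 tested. Quantile normalization gives all arrays the same distribution, which by construction brings the brightest probe sets near a difference of 0. There 13 of the 100 were higher and 7 lower with a median of 0.03, beside 378 higher and 279 lower among all 9638 tested. In krt70.S the log2 difference was 0.85 (adjusted p = 0.00718), 0.74 after median centring (adjusted p = 0.0404) and 0.10 after quantile normalization (adjusted p = 0.513). Of its other probe sets, 2 were also higher on day 2, by 1.11 and 0.67, and the third, the only one without a shared-probe suffix, differed by -0.11 (adjusted p = 0.765). In krt7.L it was 0.83 (adjusted p = 0.00718), 0.72 after median centring (adjusted p = 0.0366) and 0.39 after quantile normalization (adjusted p = 0.0314). Dimmer probe sets of the brightest genes did not all lean the same way. Second probe sets of krt7.L and tmem126a.L differed by 0.68 and 0.96. Those of cirbp.L, cirbp.S and srsf2.L differed by -0.10, -0.14 and -0.11, and that of eef1a1.S was lower on day 2, by -1.90 (limma adjusted p = 0.0463).

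Among all tested symbols 7.17% had a day call, 3.9% higher and 3.26% lower on day 2. Of 46 epidermal symbols tested 6 were higher and 3 lower on day 2 (3 and 4 after quantile normalization), the lower ones being both copies of krt18.1 and pkp3.L. krt18.1.L, a simple epithelial keratin, read 1113 and 1326 on day 2 and 2655 and 3664 on day 1. Of 26 multiciliated cell symbols meig1.S, nme5.L and ropn1l.L were higher and dnai1.L was lower (3 higher and none lower after quantile normalization); ropn1l.L was below the 40th percentile on both day 1 arrays. Among ionocyte symbols atp12a.L was higher, at 3498 and 2949 on day 2 and 1281 and 1764 on day 1. The carbonic anhydrase ca12.L was lower, at 1173 and 1529 on day 2 and 2986 and 2761 on day 1. These 2 ionocyte genes differed in opposite directions, each with days that did not overlap, as in 56.2% of all tested probe sets. In the 8 lists of other tissues and stages, pax3.L was higher (adjusted p = 0.0366, and 0.0586 after median centring) and prph.L lower, and no further tested symbol was called. Tested were 11 of 26 neural plate, 8 of 30 neuronal, 6 of 17 neural crest and 3 of 5 gland symbols. The other lists had 6 of 37 (mesoderm), 4 of 16 (blood), 4 of 26 (endoderm) and 10 of 20 (maternal) tested. The rest did not pass the filter on signal.

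In some of the genes that varied most, 1 array lay furthest from the rest. Among the 10 most variable, only zbtb33.S had an array flagged as outlying by Dixon's test. The most variable of 4711 symbols above the 40th percentile in all arrays was fam3a.L, with an SD of 1.90 on the log2 scale. Of the 10 most variable 4 had a day call, beside 7.17% of all tested symbols. The SD over the 4 arrays includes any day difference, so this choice by itself favours day calls. In 7 of the 10 the days did not overlap, beside 56.2% of all tested probe sets. They included zbtb33.S, LOC447781 and atf4-iii, where the effect of 1 distant array and that of the day could not be told apart. acod1lb.L read 6668 and 2990 on day 2 and 876 and 5398 on day 1, lowest in untreated 1. satpb.L was also lowest in untreated 1, at 865 and 515 on day 2 and 132 and 1164 on day 1. zbtb33.S, which encodes the methyl-DNA-binding repressor Kaiso, read 1008 and 4796 on day 2 and 5681 and 5814 on day 1, with untreated 3 alone low. Its other 2 probe sets, of lower mean, were instead highest in untreated 3, at 938 and 701 on day 2 and 487 and 472 on day 1 in the first, and at 330 and 222 on day 2 and 205 and 192 on day 1 in the second. gatm.L, for creatine synthesis, was lowest on the same array, at 416 and 2820 on day 2 and 2257 and 1263 on day 1. So was LOC447781, at 137 and 709 on day 2 and 1054 and 957 on day 1. atf4-iii was highest in untreated 2, at 162 and 272 on day 2 and 280 and 1199 on day 1.

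**Figure D4:**
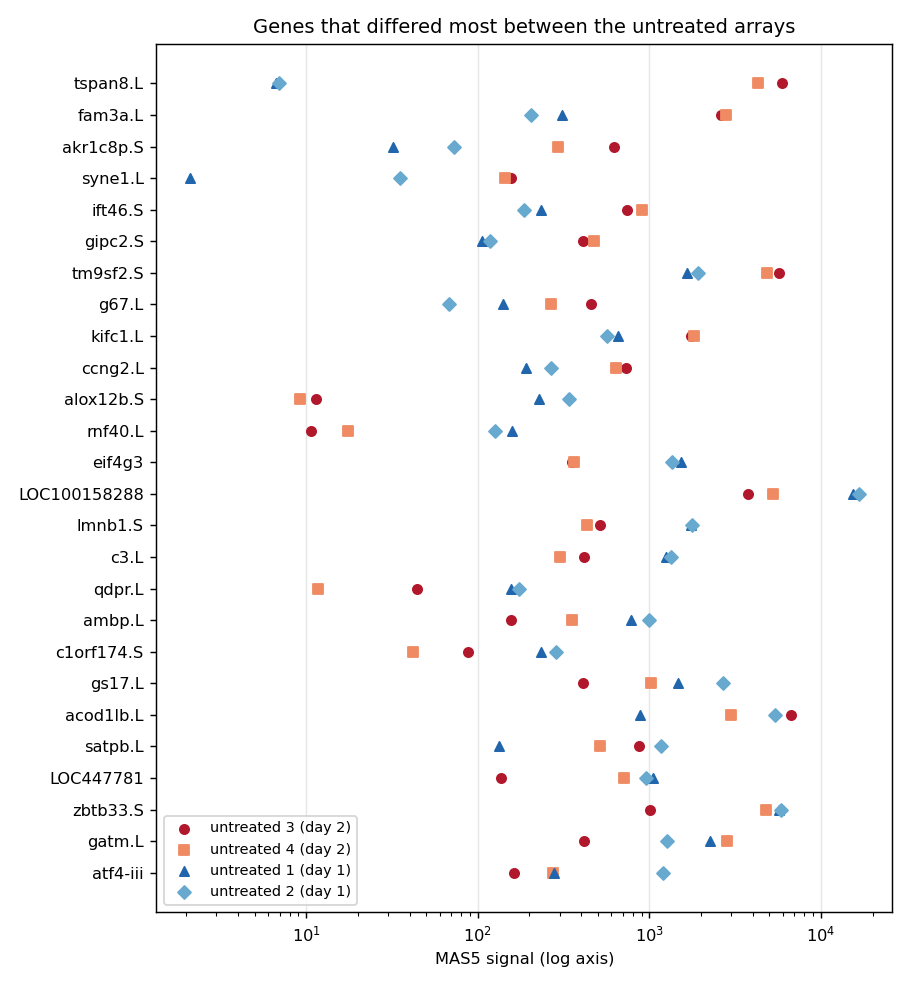
Signal per array (log axis) of the genes with the largest day differences past the test, 10 higher and 10 lower on day 2, followed by the most variable genes not already shown; red and orange mark day 2, blue marks day 1. In acod1lb.L and satpb.L untreated 1 is alone at the low end, at 876 and 132, and in zbtb33.S untreated 3 is, at 1008.

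The balance of L and S copies was close to even over the genes with both copies above the 40th percentile in all arrays. Where 1 copy was above that line and the other low, the copy above was L in 75 genes and S in 41. Both copies had a named probe set for 1017 genes, and in 573 both were above the 40th percentile in all 4 arrays. The L signal was higher in 312 of them (54.5%), with a median log2 ratio of L over S of 0.11, and 0.15 and 0.09 on the arrays of day 2 and 0.16 and 0.08 on those of day 1. Single genes were far less even. The copies were within 2-fold in 327 genes (57.1%), L was more than 4-fold higher in 43, and S more than 4-fold higher in 35. The order of the copies was the same in all 4 arrays in 446 genes (77.8%), 240 with L higher and 206 with S higher.

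The signal ratio of 2 copies also carries the difference between their probe sets. The median size of the log2 ratio was 0.90 over 500 pairs of copies without shared-probe suffixes, and 0.87 over 417 pairs of probe sets for the same symbol, the highest and the next, without such suffixes. Ratios of this size therefore also arose within a single gene copy, and no ratio was tested against 0. Across genes the log2 signals of L and S correlated with Pearson's r of 0.60 over 573 genes, all measured on the same 4 arrays.

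The largest ratios with the same copy higher in all 4 arrays were led by nap1l1, a histone chaperone. Its L copy averaged 7300 and its S copy 158.7 (log2 ratio 5.27 ± 0.21, SD, n = 4). On untreated 1 and untreated 2 the S copy read 105.7 and 109.5, barely above the 40th percentiles of 103.8 and 103.1. psma3, a proteasome subunit, had 6891 for L and 163 for S (5.17 ± 0.25). rab5if, nckipsd, rab25 (a small GTPase of epithelia), slc16a3 (a lactate transporter), csnk1a1 and cpne1 followed with log2 ratios of 3.54 to 4.14. The ratio of rab5if moved with the day, at 3.40 on day 2 and 4.88 on day 1. Toward S the largest were sri, the calcium-binding sorcin, with 177 for L and 6975 for S (-5.08 ± 0.55), and lrrc1 with 262 and 8397 (-4.86 ± 0.21). ywhab, cdc5l, srsf7, hnrnpa3, hpgds and usp5 had ratios of -3.53 to -3.12. The ratio of csnk1a1 hardly varied between arrays (3.62 ± 0.09). The weaker copies of psma3, slc16a3 and sri averaged 163, 128 and 177, so the sizes of these ratios also rest on weak signals.

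Among the pairs with a member in the 25 highest genes, copies of cirbp (log2 ratio 0.23), glul (-0.23), hmgn2 (-0.04), krt12.4 (-0.02) and h2az1 (0.57) had similar signals, and S was higher in eef1a1o (-1.45). For krt70 the ratio was -1.87 with the highest probe set of each copy and 1.56 without shared-probe suffixes, so the stronger copy could not be named. In 75 genes L alone was above the 40th percentile in all arrays with S low, in 41 S alone, and in 129 both were low.

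**Figure D5:**
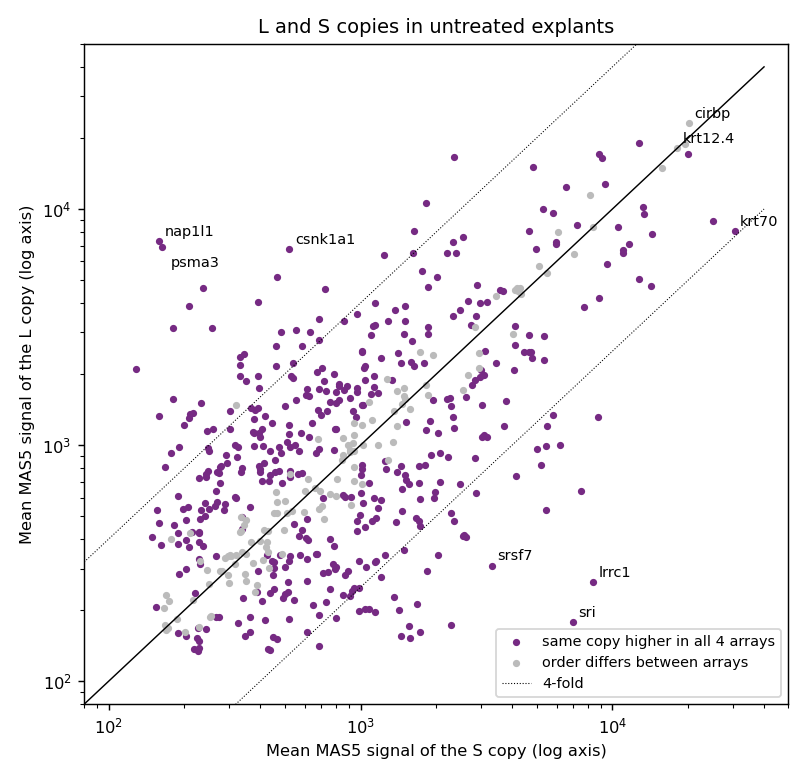
Mean signal of the L copy against the S copy for 573 genes on log axes, with lines of equality and 4-fold difference; purple points had the same copy higher in all 4 arrays (446 genes). Points lie on both sides of equality, L being higher in 312, and nap1l1 and psma3 (toward L) and sri and lrrc1 (toward S) lie beyond the 4-fold lines.

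The day calls of both copies were set side by side. Of 667 genes with both copies tested, 106 had a call in at least 1 copy. Each gene had 2 copies that could be called, and 7.17% of all tested symbols had a day call. Both copies were called higher on day 2 in 8 genes and both lower in 3. In 92 a single copy was called, and there the difference between copies was not tested. In 3 genes the calls ran in opposite directions. One was ywhaz, a 14-3-3 protein, whose L copy was lower on day 2 (log2 difference -1.06, limma adjusted p = 0.0409) and whose S copy was higher (0.64, adjusted p = 0.0366). The others were laptm4a and rab5if, again with L lower and S higher. Their calls lay just under the threshold of 0.05, with limma adjusted p = 0.0498 (L) and 0.0483 (S) for laptm4a. For rab5if the limma adjusted p was 0.0476 (L) and 0.0484 (S).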

How the data were processed

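Total RNA (1 µg) was amplified to biotinylated cRNA, per the labels' protocols. The authors deposited linear signal intensities made with MAS5, as named in the submitters' processing notes without a version. The mean of each array after trimming 2% at each end was about 500, so the values were already scaled. MAS5 subtracts mismatch signals, which makes low intensities noisy. The deposited experiment files gave other values, namely processing day, chip lot (1 for all arrays) and fluidics module, per the file headers.

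Symbols came from the platform annotation, 9227 updated through gene number with a RefSeq table of Xenopus_laevis_v10.1; 195 probe sets with several symbols and 5992 with none were not named. The probe set with the highest mean stood for a symbol. Probe sets above the 40th percentile in at least 2 arrays were fitted as log2(signal + 32), day 2 minus day 1, in limma 3.58.1 (R 4.3.3; lmFit, eBayes with trend, 2-sided, Benjamini-Hochberg, threshold 0.05); this scale understates differences at low signal. When tested on simulated data, the fit made more false calls than the threshold allows, so calls near it are weak. Tables were made in Python 3.11.15 with pandas 2.3.3 and numpy 2.4.6, and plots in matplotlib 3.10.9. Signal means and SDs are linear. The number of arrays limits the precision.

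The samples, lists and tests were chosen with earlier results of these data known. Named genes were the 25 highest, up to 5 per list and low defining markers of other tissues. The 10 largest day differences each way and the 10 most variable were also named. So were the 8 largest L to S ratios each way with the same sign in all arrays, and pairs among the 25 highest. Further list members, class members and the copies with opposite day calls were named after their values were seen. Alternatives were other scalings, pseudocounts, filters, thresholds, weights, probe set choices, the module as a block and each array left out. No genome was used, so no coordinates or sequences are given.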

Additional observations from a re-analysis of the deposited data

Results flagged for a closer look

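Of 110 named genes, 6 had an array far from the other 3 by Dixon's test, and chance alone gives such an array in about 1 of 20. rps27.S read 20050 in untreated 4, against 16621 to 16821 in the others. glul.L read 23108 in untreated 4, against 14747 to 15528. zbtb33.S read 1008 in untreated 3, against 4796 to 5814, in a probe set with shared probes; the other 2 probe sets of zbtb33.S were highest in untreated 3, at 938 and 330.4. ebf3.L, a neuronal gene, read 117.1 in untreated 3, against 157.8 to 166.2. gata5.S, an endodermal gene, read 246.7 in untreated 2, against 165 to 175.1. ccna1.L, a cyclin of the maternal list, read 385.7 in untreated 1, against 295.7 to 308.7. The flags fell on each of the 4 arrays, 2 on untreated 3, 2 on untreated 4 and 1 on each of the others.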

How the results depend on the processing

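The number of day calls (716; 456 higher, 260 lower) was 52 (34 higher, 18 lower) with no filter on low signals, 396 (257 and 139) by eBayes without a trend, 1479 (881 and 598) at an adjusted p under 0.10 and 363 (225 and 138) when at least 2-fold was required. After median centring 228 were higher. Leaving out an array in turn gave 334 to 831 calls (334 without untreated 1, 398 without untreated 2), 206 to 462 higher and 126 to 369 lower; the lone array of a day was then assumed to vary like the others. With an array left out, the day difference ran from -0.27 to 2.31 in acod1lb.L and from -0.77 to 2.09 in satpb.L, each negative without untreated 1, and from -1.94 to 0.73 in gatm.L, positive without untreated 3; none had passed the test. The call of gs17.L was lost in 7 settings, that of g67.L with no filter and without untreated 2 or untreated 3, and those of akr1c8p.S, syne1.L, ccng2.L, qdpr.L, ambp.L and c1orf174.S with no filter. Among the 100 highest probe sets the share of ribosomal proteins (5%) was 10% in the top 200, 10% without shared-probe suffixes and 5% to 8% with an array left out. That of keratins (9%) was 14% in the top 50, 4.5% in the top 200 and 4% without shared-probe suffixes. That of actin and tubulin (9%) was 5.5% and 5% in the last 2 settings, and that of unnamed probe sets (23%) was 15% without the suffixes. The share of low members moved with the threshold. At the 30th percentile it was 3.57% for multiciliated cells, 20% for small secretory cells, 40% for neurons, 20% for cement and hatching gland and 16.3% for all symbols. Against the bacterial controls it was 3.57%, 20%, 40% and 20% for the same lists, 46.2% for endoderm, 25% for maternal genes and 15.0% for all symbols. At the 80th percentile the high members were 42.9% of multiciliated, 52.9% of ionocyte, 6.67% of neuron, 60% of cement and hatching gland and 2.70% of mesoderm and muscle symbols and 22.2% of all. High cement and hatching gland members were 0% to 20% with an array left out (20% without untreated 2 or untreated 3), and high neural crest members 11.8% with the mean over all probe sets. The number of L and S pairs more than 4-fold apart (78) was 195 with no filter and 37 with a filter at the 60th percentile. The ratio for krt12.4 ran from -0.12 to 0.050 with an array left out, positive without untreated 1 or untreated 2 (0.029 and 0.050), and that for krt70 to 1.56 without shared-probe suffixes. The cause of these shifts was not tested beyond the altered sets of probe sets, arrays and thresholds. No paired analysis was possible because the labels' replicate numbers are not shared between the days (3 and 4 on day 2, 1 and 2 on day 1). With the fluidics module as a block, which matches arrays across days, 953 probe sets were called, 584 higher and 369 lower. The 4 arrays, 2 per day, limit what can be told, and signals near the bacterial controls carry no order.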

Other observations

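The following genes of secretion and the apical surface, from no fixed list and chosen after their values were seen, were among the 100 highest probe sets of untreated explants. upk3a.L, a uroplakin of apical membranes, read 17346 and 19879 on day 2 and 13682 and 14031 on day 1. otogl2.L, related to otogelin, a mucin-like protein, read 14208 and 16215 on day 2 and 9367 and 9632 on day 1. p4hb.L, a disulfide isomerase, averaged 16541 ± 2929, the chaperone calr.S 13404 ± 1916, and sec61b.L, of the translocation channel, 12823 ± 512 (SD, n = 4 each). gfpt1.S and gfpt2.L, for the entry step of hexosamine synthesis, averaged 12690 ± 2352 and 12060 ± 1378, beside the hyaluronan synthase relative has-rs.S at 11925 ± 1283 (SD, n = 4 each). Of these 8 genes, the day difference passed the test in p4hb.L and otogl2.L (limma adjusted p = 0.0476 and 0.0227), each in the brightest probe set alone, beside 31 of the 100 highest probe sets and 7.43% of all tested. The alternative scalings were not examined for them.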
